A study of Mus musculus with 6 samples.

Results

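The genes described here are 10 goblet cell and mucus genes, Muc2, Clca1, Fcgbp, Tff3, Zg16, Agr2, Spdef, Muc4, Muc13 and Muc1, read on whole-genome expression arrays of mouse colon. They were chosen by name, for their role in the mucus layer, with earlier results of these data known. All 10 had a probe on the array, out of 23462 named genes. Together they had 14 of the 56605 probes, each named through the RefSeq accession that the array files give for it. The study set 3 control mice against 3 mice with a knockout of Islr, which encodes a secreted protein with leucine-rich repeats; all 6 animals were male, and each gave 1 array of total colon RNA. By the source label, the animals of both groups drank 3.5% dextran sulfate sodium, which injures the colonic epithelium, for 5 days and then recovered for 1 day, whereas another field of the same labels speaks of no treatment. Strain, age, the knockout allele and the cells in which Islr was deleted are not given in the sources used here, and the design text speaks of a flow separation without saying of what.

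The inner surface of the colon is covered by mucus that goblet cells secrete. Its framework is a net of Muc2, the gel-forming mucin of the colon, to which Clca1, Fcgbp, Tff3 and Zg16 are added. Muc2 is folded in the endoplasmic reticulum with the help of Agr2, a protein disulfide isomerase, and goblet cell maturation depends on Spdef, a transcription factor of the ETS family. Muc4, Muc13 and Muc1 are not part of that gel: they are transmembrane mucins of the epithelial surface and are made by absorptive cells as well.

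The upstream sequences of 4 members are shown because these genes stand for the patterns that follow: Muc2 for the gel, Agr2 and Spdef for wide swings among the control arrays, and Muc4 for swings as wide with a profile of its own. Each is the 250 bases before the RefSeq transcription start in mouse assembly GRCm38.p6, 5′ to 3′ on the strand of the gene; such a sequence was found for 7 of the 10 members, and Clca1, Tff3 and Zg16 were not matched. Capitals mark matches, on either strand, to 6 short motifs.
Muc2 (chr7:141690090-141690339, plus strand): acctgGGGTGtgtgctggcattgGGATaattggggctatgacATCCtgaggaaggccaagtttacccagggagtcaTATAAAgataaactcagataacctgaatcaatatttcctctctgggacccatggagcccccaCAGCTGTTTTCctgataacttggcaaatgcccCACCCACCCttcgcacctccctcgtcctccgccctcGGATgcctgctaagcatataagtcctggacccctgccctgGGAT
Agr2 (chr12:35992675-35992924, plus strand): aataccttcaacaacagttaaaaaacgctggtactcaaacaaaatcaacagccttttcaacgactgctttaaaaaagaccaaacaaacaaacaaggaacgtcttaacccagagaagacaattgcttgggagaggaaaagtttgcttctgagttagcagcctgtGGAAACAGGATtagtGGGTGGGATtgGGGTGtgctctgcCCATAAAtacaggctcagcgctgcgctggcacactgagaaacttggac
Spdef (chr17:27728952-27729201, minus strand): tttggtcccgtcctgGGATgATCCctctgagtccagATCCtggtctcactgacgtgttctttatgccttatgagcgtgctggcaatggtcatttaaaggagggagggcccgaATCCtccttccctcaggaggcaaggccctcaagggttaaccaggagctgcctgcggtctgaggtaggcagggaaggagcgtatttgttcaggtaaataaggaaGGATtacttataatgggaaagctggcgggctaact
Muc4 (chr16:32735636-32735885, plus strand): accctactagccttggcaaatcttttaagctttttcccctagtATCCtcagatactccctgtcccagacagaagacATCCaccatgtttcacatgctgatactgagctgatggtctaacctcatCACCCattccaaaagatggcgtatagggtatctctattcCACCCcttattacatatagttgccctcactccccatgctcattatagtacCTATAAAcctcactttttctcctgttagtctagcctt
The motifs were GGAT, the core that SPDEF and other ETS factors bind; TGTTTNC, of the forkhead FOXA factors; CACCC, of KLF4; TTTATNG, of CDX2; CAGNTG, the E-box of ATOH1 and other basic helix-loop-helix factors; and TATAAA, the TATA box. GGAT was present in 6 of the 7 members, all but Muc1, and in 74.1% of the 32851 promoters of the same length, so its presence is common. TGTTTNC was found in 3 of 7, Muc2, Agr2 and Muc13, against 17.8% of all promoters, and TTTATNG in 2 of 7, Agr2 and Muc4, against 9.81%. CACCC occurred in 4 of 7 (52% of all promoters), CAGNTG in 4 of 7 (44.8%) and TATAAA in 3 of 7 (12.4%), namely Muc2, Muc4 and Muc1. The TATAAA match began 36 bases before the start in Muc4 and 31 in Muc1, but 174 in Muc2. Spdef held 5 GGAT matches and no other motif of the 6. In Muc2 the E-box overlaps the forkhead match, and in Muc4 the TTTATNG match, read on the other strand, contains the TATA box. These are matches of letters in a window and show no binding.

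Levels are given as the log2 of the processed red signal minus the 75th percentile of the array, so 0 is the 75th percentile of an array and 1 unit is a factor of 2. Before scaling, that percentile was 6353 to 7110.5 intensity units on the control arrays and 4910.5 to 5820.0 on the knockout arrays, and no spot was saturated. Between 69.4% and 75.4% of spots were well above background. The scanner software marked 3.26% to 16.0% of the spots of an array as outliers, and 10.69% to 56.8% of the brightest 10%, most on control 1 and knockout 1. Of the 84 spots of the members, 10 were marked, 3 on control 1, 2 on control 3 and 5 on knockout 1. Such spots were left out of the test as a rule, and results are also given with them kept. The labels were checked on Islr itself, whose log2 level was 1.57, 1.24 and 1.21 on controls 1 to 3 and -1.40, -0.93 and -1.31 on knockouts 1 to 3; it fell by 2.44 (SE 0.21, limma adjusted p = 0.0171). The value of control 1 was a marked spot, so that fit rested on 2 controls. With the spot kept, Islr fell by 2.55 (SE 0.20, limma adjusted p = 0.00741), and control 1 read no lower than the other controls. All 6 arrays lay on 1 slide, with the controls in one row and the knockouts in the other, so that row and genotype cannot be told apart.

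None of the 10 genes passed the test between genotypes, and the control arrays spread widely: control 1 lay within or above the knockout range at 8 of the 10 genes, and control 2 was the lowest of all 6 arrays at all 10. With the marked spots left out, 9 members could be tested, and 0 were called at a 5% false discovery rate (limma, Benjamini-Hochberg over all tested probes), where 3.97% of the 35351 tested probes were called. With the spots kept, all 10 were tested and 0 were called, against 4.85% of 40172 probes. The mean of the knockouts was above that of the controls at 9 of 9 tested members, with a median difference of 1.11 log2 units (range 0.45 to 1.76), where the median over all tested probes was 0.00. With the level taken relative to epithelial markers, the difference changed sign at 5 of these 9. On that scale only 5.44% of all tested probes lay above 0, and the median over all tested probes was -1.18. An unadjusted limma p under 0.05 with a higher knockout mean was found for 2 of the 9, Muc13 and Muc1, where 12.8% of all tested probes met that rule. In RNA pooled from many cells, more goblet cells and more RNA per goblet cell cannot be told apart. The 3 arrays a group limit the precision. The limma p-values weigh a difference against a variance that joins the gene's own spread between these animals with that of all tested probes. An exact permutation test of 3 against 3 cannot go below 0.1.

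**Figure D1:**
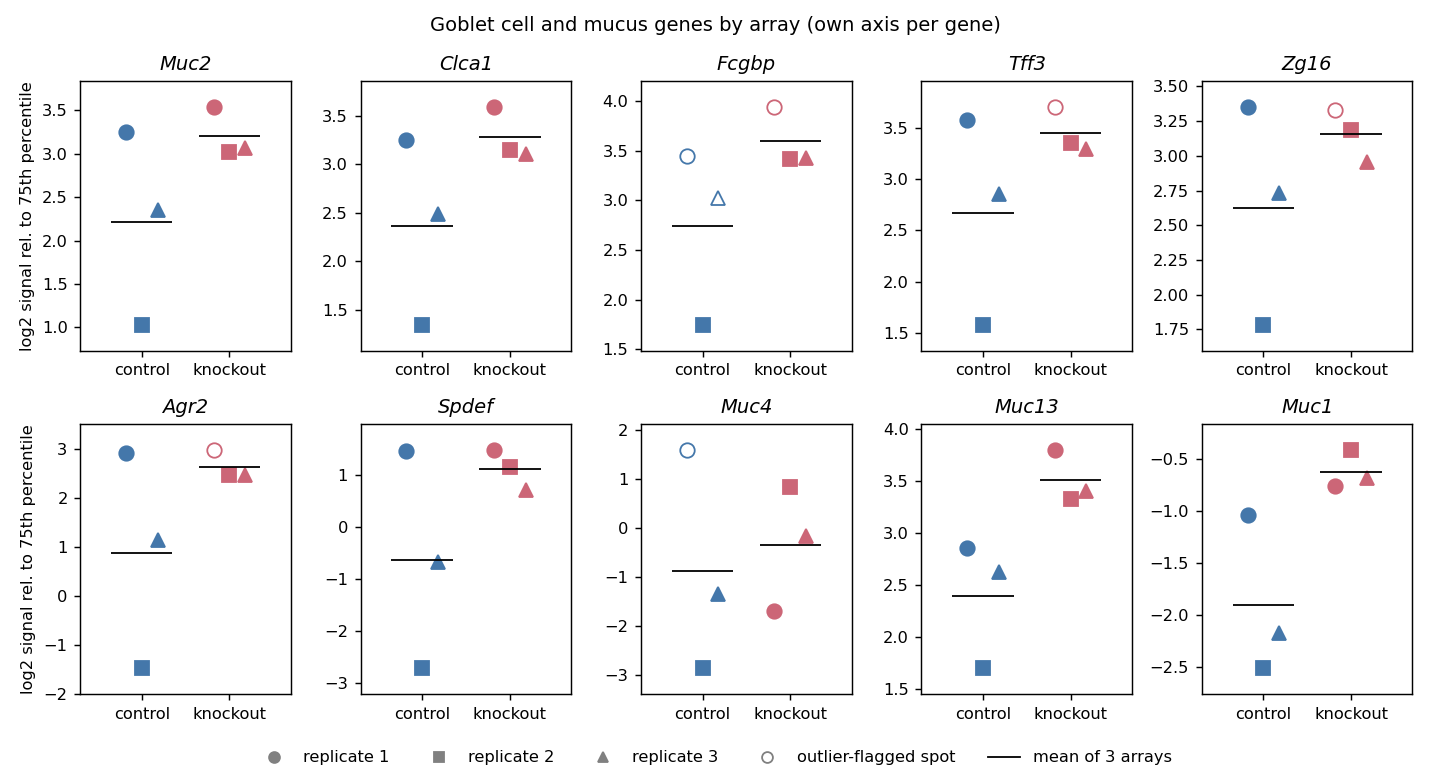
Log2 signal relative to the 75th percentile of the array (vertical axis, own range per gene) of the 10 members on the 3 control and 3 knockout arrays; the marker shape gives the replicate number, which pairs no animals, open markers are spots marked as outliers, and lines are means of 3 arrays. Control 2 was the lowest of the 6 arrays for all 10 genes, and control 1 lay above the lowest knockout for 8 of them.

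The 5 proteins of the secreted gel gave nearly the same picture. Muc2 was read by a bright probe at 3.25, 1.03 and 2.35 on controls 1, 2 and 3 and at 3.54, 3.02 and 3.07 on knockouts 1, 2 and 3. Controls 2 and 3 were below every knockout, while control 1 lay inside the knockout range. The knockout mean, 3.21 ± 0.29 (SD, n = 3), was above the control mean of 2.21 ± 1.12 (SD, n = 3) by 1.00 (SE 0.53, limma adjusted p = 0.279), a factor of 1.997 that was smaller than the spread among controls. A second, dim Muc2 probe read -4.09, -5.54 and -4.98 against -4.12, -4.34 and -4.45, a difference of 0.57 (SE 0.36, limma adjusted p = 0.356), with control 1 again at knockout level and the other controls below.

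Clca1, a protease secreted into mucus, read 3.25, 1.35 and 2.49 on the controls and 3.59, 3.15 and 3.11 on the knockouts. Its difference was 0.92 (SE 0.46, limma adjusted p = 0.257). As for Muc2, control 1 was above 2 of the 3 knockouts. Fcgbp, a very large protein built of von Willebrand factor D domains, read 3.45, 1.75 and 3.02 against 3.94, 3.41 and 3.43, but its spots on control 1, control 3 and knockout 1 were marked as outliers. It was therefore tested only with the marked spots kept, where the difference was 0.85 (SE 0.44, limma adjusted p = 0.257). Control 1 was just above knockouts 2 and 3 here as well.

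Tff3, a trefoil peptide that goblet cells release with the mucin, read 3.57, 1.58 and 2.85 on the controls and 3.70, 3.35 and 3.29 on the knockouts, the value of knockout 1 being a marked spot. With that spot left out the difference was 0.65 (SE 0.57, limma adjusted p = 0.509), and with it kept 0.78 (SE 0.48, limma adjusted p = 0.338). Zg16, a lectin that binds the cell wall of Gram-positive bacteria, read 3.35, 1.78 and 2.73 against 3.33, 3.19 and 2.96, again with the knockout 1 spot marked. Zg16 was the only gel protein whose highest value lay in the control group, at control 1. Its difference was 0.45 (SE 0.46, limma adjusted p = 0.573), the smallest among the 9 tested members. On the linear scale, control 1 exceeded control 2 by factors of 2.96 (Zg16) to 4.66 (Muc2) across the 5 gel proteins, while the knockout means exceeded the control means by factors of 1.45 (Zg16) to 1.997 (Muc2) with the spots kept.

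The 2 members that act inside the goblet cell swung much more widely between the control arrays. Agr2 read 2.93, -1.47 and 1.15 on controls 1 to 3 and 2.98, 2.47 and 2.47 on knockouts 1 to 3, with the spot of knockout 1 marked. Control 1 and the 3 knockouts lay within about the same narrow band, and control 2 stood 21.1-fold below control 1. The difference between genotypes was 1.60 (SE 1.21, limma adjusted p = 0.443), and 1.77 (SE 1.00, limma adjusted p = 0.301) with the marked spot kept. Spdef read 1.45, -2.71 and -0.68 against 1.47, 1.15 and 0.71. Here control 1 fell just short of the highest knockout and was 17.9-fold above control 2. Its difference of 1.76 (SE 0.96, limma adjusted p = 0.286), a factor of 3.39, was smaller than the control SD of 2.08.

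The cell-surface mucins did not share one pattern. Muc13 read 2.86, 1.71 and 2.63 on the controls and 3.80, 3.34 and 3.41 on the knockouts, so the groups did not overlap. Its mean was 3.51 ± 0.25 (SD, n = 3) in knockouts and 2.40 ± 0.61 (SD, n = 3) in controls, a difference of 1.11 (SE 0.32, limma adjusted p = 0.0913; exact permutation p = 0.1, the smallest the design allows). A second Muc13 probe read 2.67, 0.91 and 2.13 against 3.56, 2.96 and 3.26, also without overlap. Since 3 of its spots were marked, that probe was tested only with them kept, at 1.36 (SE 0.44, limma adjusted p = 0.110). Both Muc13 probes thus ordered the groups alike and neither passed the threshold.

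Muc1, a dimmer signal, read -1.04, -2.51 and -2.18 on the controls and -0.76, -0.42 and -0.68 on the knockouts. Its groups were also apart, with control 1 the closest to the knockouts. The difference was 1.29 (SE 0.38, limma adjusted p = 0.0936), a factor of 2.44. Muc13 and Muc1 were the only 2 of the 10 members with every knockout above every control, where 17.3% of all tested probes showed that order, so the count is near what the arrays gave as a whole.

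Muc4 differed from the rest. Its brightest probe read 1.58, -2.85 and -1.35 on the controls and -1.70, 0.84 and -0.17 on the knockouts, and the value of control 1 was a marked spot. The 2 groups interleaved: control 1 was the highest array, and knockout 1, the highest for 7 of the other members, was below control 3. With the marked spot left out the difference was 1.76 (SE 0.82, limma adjusted p = 0.238), resting on 2 controls, and with it kept 0.53 (SE 1.16, limma adjusted p = 0.796). A second Muc4 probe with no marked spot read -0.47, -4.66 and -3.66 against -3.86, -1.50 and -3.02, so that control 1 stood highest there too, and its difference was 0.13 (SE 1.12, limma adjusted p = 0.952). The third Muc4 probe was well above background on control 1 alone and was not tested. The marked control 1 value at Muc4 thus had a counterpart in an unmarked spot of another probe, and the larger of the estimates is the one without it.

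**Figure D2:**
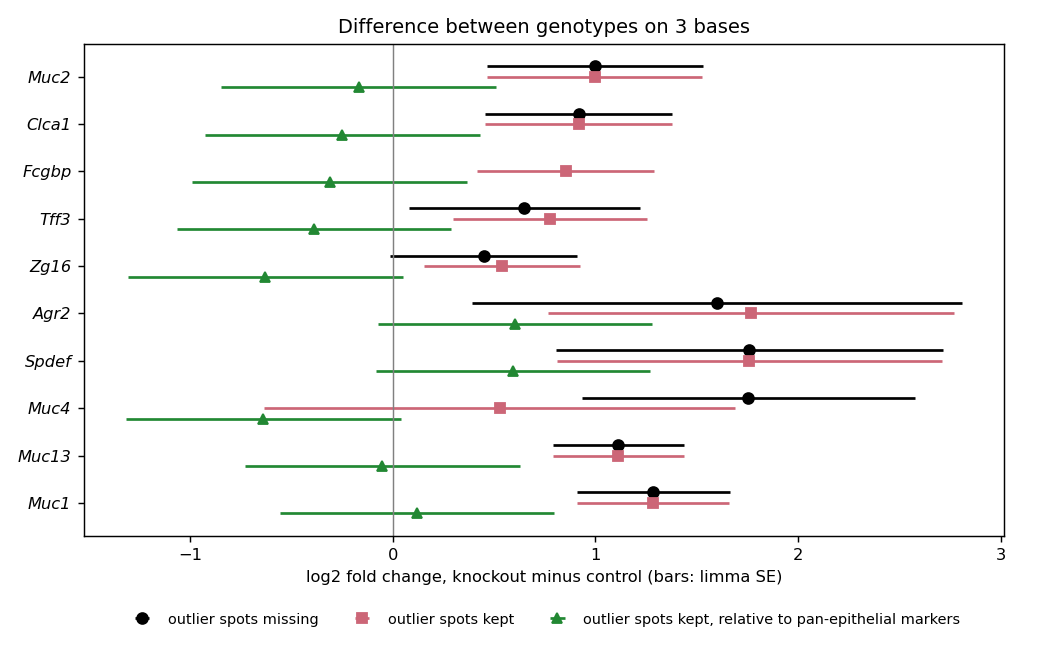
Log2 difference, knockout minus control (horizontal axis; bars are limma standard errors), of each member with outlier-marked spots missing, with them kept, and with them kept and each array set relative to its mean over 8 pan-epithelial markers. The first 2 sets lie above 0 for every member that could be tested, from 0.45 to 1.77, whereas relative to the epithelial markers 7 of 10 members lie below 0. On that last scale only 5.47% of all tested probes lie above 0.

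The order of the 6 arrays was much the same from member to member. Control 2 was the lowest array at 10 of 10 members, and knockout 1 was the highest at 7, control 1 at 2 (Zg16 and Muc4) and knockout 2 at 1 (Muc1). Control 1 was above both other controls at 10 of 10 members and above the lowest knockout at 8. Controls 2 and 3 lay below every knockout at 9 of 10, the exception being Muc4. The SD was larger among controls than among knockouts at all 10 members, by a factor of 1.77 (Muc4) to 7.55 (Agr2), while over all tested probes the controls had the larger SD for 48.9%. This was not particular to the members. The mean of the 8 pan-epithelial markers named below had an SD of 0.95 in controls and 0.22 in knockouts. For 10 absorptive colonocyte markers these were 1.16 and 0.36. The means of the fibroblast, leukocyte and tuft marker lists had the larger SD in knockouts.

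How far the results hung on single control arrays was seen by leaving each out, with marked spots kept. Without control 1, the median difference of the members was 1.44 and 2 were called, Spdef at 2.81 (limma adjusted p = 0.0484) and Muc1 at 1.72 (limma adjusted p = 0.0209); over all settings tried, the adjusted p of these genes ran from 0.0418 to 0.594 and from 0.0110 to 0.876. Over all probes, 3185 were called without control 1, against 1948 with all 6 arrays. Without control 2, the median was 0.41 and 0 members were called, in a fit that called only 178 probes in all. At Agr2, for instance, the difference was 2.80 without control 1 and 0.60 without control 2. Muc4 fell below 0, to -0.46 without control 2 and -0.064 without knockout 2. With the marked spots left out, Muc1 alone was called without control 1 (1.72, limma adjusted p = 0.0247), with 2114 probes called in all against 1403. The genotype and treatment labels are the same for all 3 controls, whose sample titles differ by a number. Controls 1 and 2 stay in the fits above, apart from marked spots and the fits that left 1 array out.

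**Figure D3:**
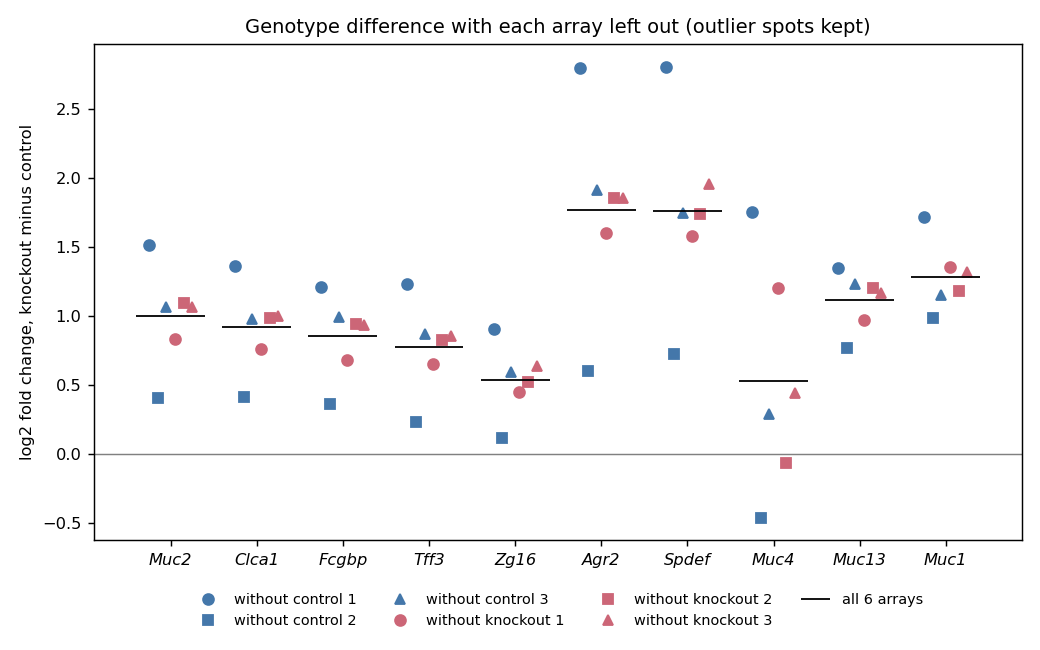
Log2 difference, knockout minus control (vertical axis), of each member with 1 array left out at a time (markers) and with all 6 arrays (black lines), outlier-marked spots kept. Leaving out control 1 raised every member and leaving out control 2 lowered every member, from 1.77 to 2.80 and to 0.60 in the case of Agr2.

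Other cells of the colon moved between the same arrays. The 8 pan-epithelial markers (Epcam, Cdh1, Krt8, Krt18, Krt19, Vil1, Cldn7 and Cldn3) had mean log2 levels of 2.65, 0.85 and 2.28 on controls 1 to 3 and of 3.35, 2.94 and 2.98 on knockouts 1 to 3. All 8 were detected, and their summed level ran from 16.3 to 53.0 times the 75th percentile in controls and from 63.3 to 84.3 in knockouts. Control 2 was thus also the poorest array in epithelial transcripts, but control 1, unlike for the gel proteins, stayed below every knockout. The 10 absorptive colonocyte markers, all detected, summed to 12.4 to 49.97 in controls and 59.4 to 79.3 in knockouts. The 8 stromal fibroblast markers summed to 44.8 to 52.1 in controls and 27.9 to 39.1 in knockouts, the opposite order, and the 8 leukocyte markers to 12.4 to 17.2 and 7.62 to 15.1. No marker of these lists was at background on every array. The part of these shifts in the members' differences was not tested.

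**Figure D4:**
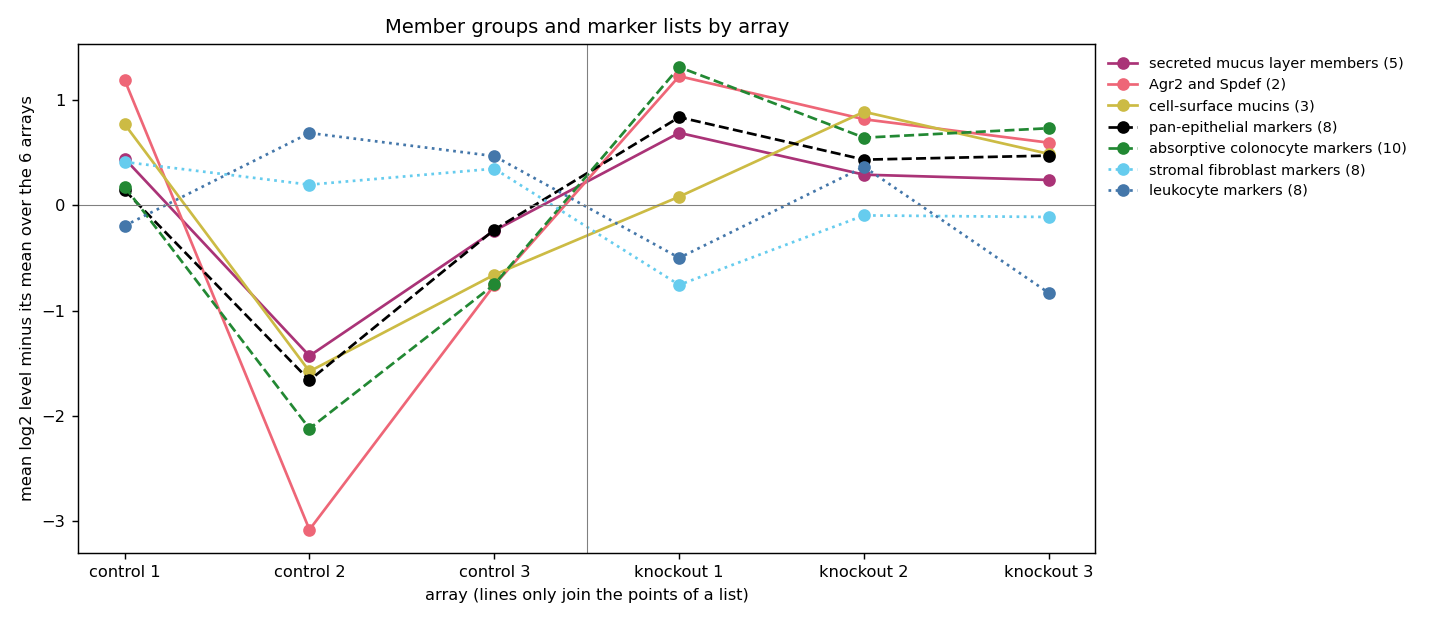
Mean log2 level of 3 groups of members and 4 marker lists on each array, minus the list's own mean over the 6 arrays (vertical axis; number of genes in brackets; lines only join points of a list). The members and both epithelial lists dip at control 2, where Agr2 and Spdef dip furthest, and the fibroblast markers lie lower on the 3 knockout arrays than on the 3 controls.

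The members were therefore also measured relative to the pan-epithelial markers, by subtracting each array's mean over the 8 markers with marked spots kept. On that scale 0 of 10 members were called, where 11.3% of all probes were, and the median over all probes moved from 0.01 to -1.15, so a value is best read against that shift. The 5 gel proteins all had lower means in the knockouts: Muc2 differed by -0.17, Clca1 by -0.25, Fcgbp by -0.31, Tff3 by -0.39 and Zg16 by -0.63 (SE 0.68 each, limma adjusted p from 0.402 to 0.823). Muc2 read 0.60, 0.19 and 0.07 on controls 1 to 3 and 0.19, 0.07 and 0.09 on knockouts 1 to 3, so that control 2, the lowest array before, now lay with the rest. Zg16 read 0.70, 0.94 and 0.45 against -0.01, 0.24 and -0.02, with all controls above all knockouts. The same order held for Fcgbp (0.80, 0.90 and 0.74 against 0.59, 0.47 and 0.45) and Tff3 (0.92, 0.73 and 0.58 against 0.35, 0.40 and 0.31). At Muc2 and Clca1 the groups overlapped. How many of all probes had that order on this scale was not counted. The standard error on this scale is one value that the limma fit gave to every probe, not the gene's own spread, and the p-values rest on it. A difference smaller than this standard error, as at all 5 gel proteins, therefore does not mean that the groups overlap.

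Agr2 and Spdef kept a higher knockout mean on the epithelial scale, at 0.60 (limma adjusted p = 0.420) and 0.59 (limma adjusted p = 0.428). Spdef read -1.21, -3.56 and -2.96 on controls 1 to 3 and -1.88, -1.79 and -2.27 on knockouts 1 to 3. Controls 2 and 3 thus remained below the knockouts even relative to their own epithelial content, and control 1 was above them. Muc13 was at -0.051 (limma adjusted p = 0.947), Muc1 at 0.12 (limma adjusted p = 0.875) and Muc4 at -0.64 (limma adjusted p = 0.395). The separation of Muc13 between the genotypes was not seen on this scale, since its values were 0.21, 0.86 and 0.35 against 0.45, 0.39 and 0.43.

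The wider mucus programme was taken from lists of named genes and read in the same test. Of 12 secretory lineage transcription factors, 8 could be tested, 0 were called by their brightest probe, and all 8 had a higher knockout mean (median 1.27). Foxa2, a forkhead factor of goblet cells, differed by 2.30 (limma adjusted p = 0.169), Foxa3 by 1.77 (limma adjusted p = 0.333), Elf3, an epithelial ETS factor, by 1.69 (limma adjusted p = 0.107) and Sox9, a factor of the crypt base, by 1.52 (limma adjusted p = 0.0649). A second Sox9 probe differed by 1.27 (limma adjusted p = 0.0530, and 0.0499 with marked spots kept). Relative to the epithelial markers, 4 of the 8 stayed above 0, where 5.44% of all tested probes lay above 0, and none was called. Atoh1, which commits progenitors to the secretory lineage, could be tested only with marked spots kept; it read 0.97, -4.87 and -1.86 on the controls and 0.90, 0.75 and -0.42 on the knockouts. The Atoh1 values of control 1 and of knockouts 1 and 2 were marked spots. Control 1 was the highest array, just above knockout 1, and control 2 lay far below, an order close to that of Spdef. The Atoh1 difference of 2.33 did not pass (limma adjusted p = 0.309). Gfi1, a repressor downstream of Atoh1, had probes that disagreed: the brightest differed by 0.58 (limma adjusted p = 0.296), and a dimmer one was lower in the knockouts, at -1.29 (SE 0.21, limma adjusted p = 0.0353). The dimmer probe read -4.05, -3.68 and -4.29 on the controls and -5.50, -5.20 and -5.18 on the knockouts. Only 2 of the 3 knockouts were well above background at that probe.

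Of 22 genes for mucin folding and O-glycosylation, 15 were tested, 1 was called higher and 0 lower, and 12 had a higher knockout mean (median 1.35). The called gene was Galnt12, a transferase that starts O-glycan chains, at 1.71 (SE 0.28, limma adjusted p = 0.0419), but its control 1 spot was marked. With that spot kept it read 1.28, -0.99 and -0.34 on the controls and 1.03, 1.32 and 0.81 on the knockouts, and the call was lost (1.07, limma adjusted p = 0.259). Ern2, the endoplasmic reticulum stress sensor of mucus cells, differed by 2.11 (limma adjusted p = 0.199), B4galnt2, a terminal N-acetylgalactosamine transferase, by 2.07 (limma adjusted p = 0.156) and B3gnt3, which extends O-glycans, by 1.93 (limma adjusted p = 0.1005).

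St3gal1, which caps O-glycans with sialic acid, went the other way from most of that list. One of its probes read 0.94, 1.02 and 1.00 on the controls and -2.81, -0.60 and -1.25 on the knockouts, with no overlap and little spread among controls. That probe differed by -2.54 (limma adjusted p = 0.0516, and 0.0475 with marked spots kept) and the brightest probe by -1.84 (limma adjusted p = 0.0600). Its level on control 2 was thus that of the other controls. Relative to the epithelial markers it was called lower, with B3gnt6, the core 3 enzyme of colonic mucin, at -3.005 and -2.17 (limma adjusted p = 0.000508 and 0.0217).

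Among 22 other goblet cell products and granule genes, 19 were tested, 0 were called, and 18 had a higher knockout mean (median 1.42). Nlrp6, an inflammasome sensor, differed by 3.37 (limma adjusted p = 0.0738), Best2, an anion channel of goblet cells, by 3.19 (limma adjusted p = 0.123) and Capn9, a calpain, by 2.25 (limma adjusted p = 0.212). Nlrp6 and Best2 stayed higher relative to the epithelial markers, at 2.20 and 2.02, and were called there. Tff1, a trefoil peptide best known from the stomach, had the only lower knockout mean of the list (-1.73, limma adjusted p = 0.0734, no overlap). Relative to those markers Tff1 was called lower, at -2.90 (limma adjusted p = 0.000922), as were most probes called on that scale. Its probe was dim, at -4.00, -3.22 and -3.93 on the controls and -6.39, -4.76 and -5.21 on the knockouts. Only 2 of the 3 knockouts were well above background there. Itln1, an intestinal lectin, differed by 3.67 (limma adjusted p = 0.0648) with its control 1 spot left out. With that spot kept it read 3.06, -4.34 and -1.48 against 1.02, 0.45 and 0.81, and the difference was 1.68 (limma adjusted p = 0.548). Itln1 thus resembled Muc4 in having control 1 as its highest array.

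Of 11 other mucins, 5 were tested and 0 were called; 2 had a higher knockout mean and 3 a lower one (median -0.11). Muc20 differed by 0.76 (limma adjusted p = 0.270), Muc6 by -0.45 (limma adjusted p = 0.365), the gel-forming Muc5b by 0.44 (limma adjusted p = 0.399) and Muc5ac, the gel-forming mucin of the stomach, by -0.17 (limma adjusted p = 0.690). These were dim probes, from -5.02 to -2.24 on single arrays, and in none of these 4 was control 2 the lowest array.

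The genes for mucus release, unfolding and ion supply held the other calls. Of 12, 10 were tested, 2 were called higher and 0 lower, and 8 had a higher knockout mean (median 2.75, or 1.61 over all 12 with marked spots kept). Tgm3, a transglutaminase that can cross-link mucus proteins, read -2.76, -4.57 and -2.50 on the controls and 1.99, 0.35 and 1.06 on the knockouts. It rose by 4.41 (SE 0.64, limma adjusted p = 0.0302), with the groups far apart. Slc4a4, a sodium bicarbonate cotransporter, read -0.95, -1.89 and -1.46 against 2.31, 0.70 and 0.73 and rose by 2.68 (SE 0.48, limma adjusted p = 0.0422). For both genes control 1 stayed with the other controls, unlike at the gel proteins. Slc26a3, a chloride and bicarbonate exchanger of absorptive cells, differed by 3.69 (limma adjusted p = 0.0883). The meprins, proteases of the epithelial surface of which Mep1b cleaves Muc2, differed by 2.83 (Mep1b, limma adjusted p = 0.109) and 2.82 (Mep1a, limma adjusted p = 0.195). Mep1b had marked spots on control 1 and knockout 1, and Mep1a on knockout 1. With these kept, the differences were 2.01 (Mep1b, limma adjusted p = 0.195) and 3.10 (Mep1a, limma adjusted p = 0.104). Relative to the epithelial markers, with marked spots kept, Tgm3, Slc26a3, Cftr and Mep1a were called higher and Slc4a4 was not (1.51, limma adjusted p = 0.101).

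**Figure D5:**
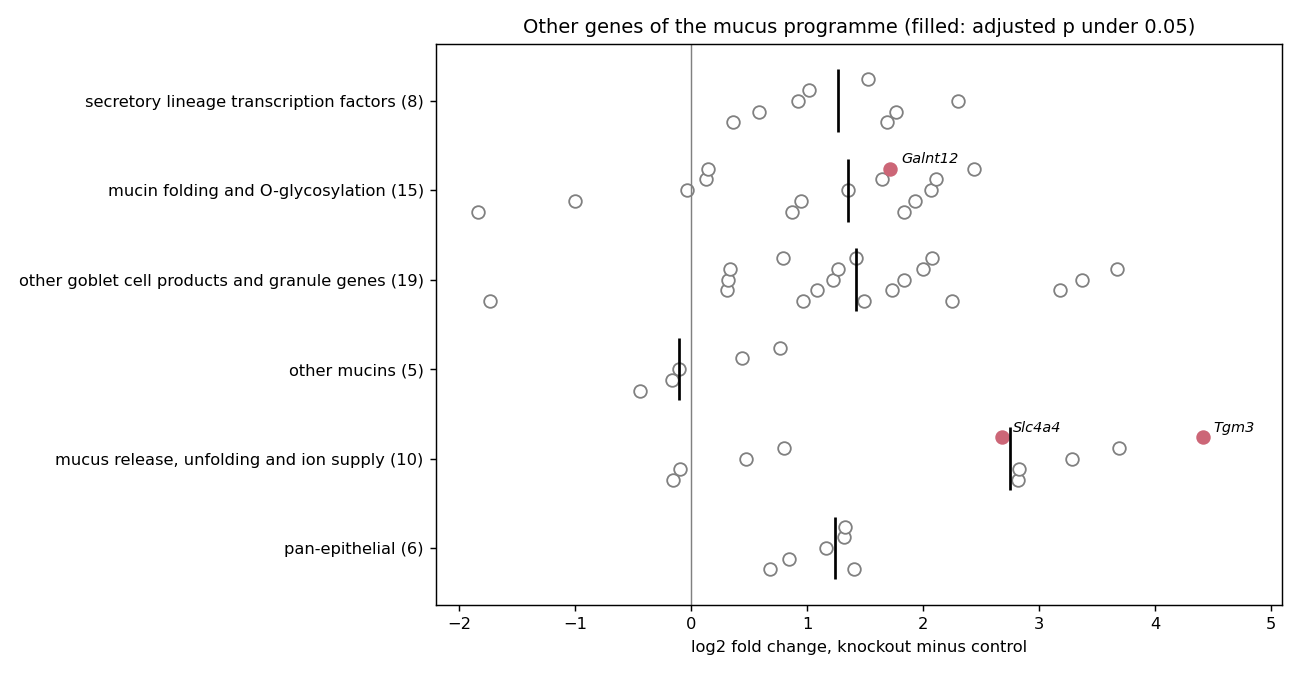
Log2 difference, knockout minus control, outlier-marked spots left out (horizontal axis), of the tested genes of 5 mucus lists and of the pan-epithelial markers (number tested in brackets); each point is a gene by its brightest tested probe, filled points passed the test, and black lines are medians. Galnt12, Slc4a4 and Tgm3 were the genes called, and the median of 4 mucus lists, from 1.27 to 2.75, was above the 1.24 of the epithelial markers, while that of the other mucins was -0.11; relative to the epithelial markers the 5 list medians, from top to bottom, were 0.10, 0.18, 0.26, -1.28 and 1.47, where the median of all probes was -1.18.

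Likeness of profile over the 6 arrays, as Pearson correlation with the bright Muc2 probe and given as a description of points that share their arrays, was 0.999 for Clca1, 0.996 for Tff3, 0.994 for Agr2, 0.990 for Fcgbp, 0.987 for Spdef and 0.982 for Zg16. It was 0.932 for Muc13, 0.869 for Muc1 and 0.648 for Muc4, so the cell-surface mucins followed Muc2 less closely. Among 5687 probes with an SD of at least 0.5 over the arrays, the 3 genes outside the set that followed Muc2 most closely were 9530053A07Rik (0.998), Ang6 (0.998) and Ly6g6e (0.997). Ang6, an angiogenin family ribonuclease, read 2.40, -0.81 and 1.11 on the controls and 3.07, 2.28 and 2.27 on the knockouts. In each of the 3, control 2 was again the lowest array.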

How the data were processed

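Total RNA, extracted with TRIzol per the labels' protocols, was hybridised to 1-colour Agilent arrays. The deposited processed signal is an intensity on a linear scale, background-subtracted by Agilent Feature Extraction 11.5.1.1 per the file headers (10.7 per the submitters' processing notes); the labels name the green dye, but the deposited files hold the red channel alone. Its log2 minus the array's 75th percentile of non-control spots was analysed, outlier-marked spots missing, spots of a probe averaged. A probe was tested if well above background on all 3 arrays of a group, with at least 2 usable values per group. Tests were limma 3.58.1 (lmFit, eBayes, two-sided) in R 4.3.3, fitted on genotype, with Benjamini-Hochberg adjustment at 5% over all tested probes, checked on simulated data. The series' value table, also intensities deposited by the authors, served as an alternative. The tested probe of highest mean stood for a gene. Names came from RefSeq (GRCm38.p6). The members and lists were chosen with earlier results of these data known. Named genes were all members, list genes called, else up to 4 per list of largest difference among those above background on all arrays, the 3 most like Muc2, and Islr; Atoh1, Gfi1, B3gnt6, Cftr, Tff1, Dclk1 and the second St3gal1 and Sox9 probes were added after their values were seen. Alternatives changed scaling, background correction, filters, marked spots and array weights, or left out each array.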

Additional observations from a re-analysis of the deposited data

How the results depend on the processing

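With all 6 arrays, the count of members called was 0 under 75th percentile, median and quantile scaling, normexp (offset 50) with quantile scaling, an intensity trend, the value table, no scaling, either filter on dim probes, marked spots kept and centring on the pan-epithelial markers. Array weights (0.343 for control 1, 3.19 for control 2) gave 5, namely Muc13, Clca1, Spdef, Muc4 and Muc1 (limma adjusted p from 0.0110 to 0.0496), and 8119 calls over all probes in place of 1403. Over all probes the calls numbered 1948 with marked spots kept and 484 with no filter. Unscaled, the all-probe median moved by -0.27 and 21.4% of calls were higher, against 39.1% as reported; centred on epithelial markers, 2.68%. That centring moved the members' median to -0.051, and to -0.21 with marked spots kept (a combination chosen after seeing the data, as were no scaling and the leave-one-out with marked spots kept). Of 227 comparisons of a member with its reported value, 203 kept direction and side of the threshold, 8 newly passed it and 16 changed sign. The last were, under centring, Muc2 (-0.17), Clca1 (-0.25), Tff3 (-0.39), Zg16 (-0.59) and Muc13 (-0.051); the same with marked spots kept, with Zg16 at -0.63, Fcgbp at -0.31 and Muc4 at -0.64; and Muc4 at -0.73 without control 2 and -0.23 without control 3, both through its second probe, and, spots kept, at -0.46 without control 2 and -0.064 without knockout 2 (over single arrays left out, Muc4 ran from -0.73 to 2.43). The cause was not tested. Leaving out 1 array gave 0 to 1 calls (40 to 2114 over all probes) and a median of 0.41 to 1.52; with marked spots kept, 0 to 2 calls (120 to 3185) and 0.41 to 1.44. Without knockout 2 or 3 only 6 members could be tested. No paired analysis was possible because the labels carry no replicate numbers shared by the groups.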

Other observations

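Markers of other epithelial cell types gave few calls. Of 8 tuft cell markers, Trpm5, the taste transduction channel of tuft cells, rose by 2.15 (limma adjusted p = 0.0251), and relative to the pan-epithelial markers differed by 0.98 without passing the test. It read -3.25, -4.18 and -3.48 on controls 1 to 3 and -1.29, -1.49 and -1.67 on knockouts 1 to 3, so that control 1 stayed with the controls. Of the 8 tuft markers, 5 had a higher and 3 a lower knockout mean. Dclk1, a kinase of tuft cells, differed by -1.11 (limma adjusted p = 0.146). Relative to the pan-epithelial markers Dclk1 was called lower, at -2.27 (limma adjusted p = 0.0153), as were most probes called on that scale. The mean log2 level of the tuft list was -2.37, -2.21 and -2.17 on the controls and -1.87, -1.57 and -1.93 on the knockouts, with no overlap (exact permutation p = 0.1), whereas its summed linear level overlapped, at 4.47 to 5.54 and 3.71 to 5.27. The sums also overlapped for the 8 enteroendocrine markers, at 10.4 to 25.1 in controls and 17.0 to 27.7 in knockouts, and for the Paneth and deep crypt secretory markers, of which 6 of 8 were read, at 7.03 to 15.6 and 8.32 to 10.8. Among the stromal fibroblast markers Pdgfrb fell by 1.17 (limma adjusted p = 0.0395).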
